A study of Mus musculus with 12 samples.

Results

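Livers of BALB/c mice without Tgfb1 were compared with livers of BALB/c mice without both Tgfb1 and Ifng, so the comparison asks what the lack of interferon gamma changes in a liver that already lacks transforming growth factor beta 1. All genes on the array were compared, between the 3 arrays labelled IFNko TGFB1 KO and the 3 labelled TGFB KO, which are 6 of the 12 arrays of the study. Both of these groups carry the Tgfb1 deletion, and the groups differ by the Ifng deletion. The other 6 arrays are 3 labelled as BALB/c wild type and 3 labelled INFko TGFB+, which lack Ifng and keep Tgfb1. Each array holds total RNA of 1 liver. The study's title gives acute autoimmune hepatitis as the disease studied. The labels name no Cre, so the deletions are taken as present in every cell, and they give neither the age of the mice nor their sex. In RNA from whole liver, more cells of a type and more RNA per cell cannot be told apart. The numbered arrays are not stated to come from separate litters, so p-values measure the spread between these samples only. Levels are normalised signals, that is, array signal after quantile normalisation. Changes are log2 fold changes of signal plus 16, IFNko TGFB1 KO minus TGFB KO, with their standard error, from limma over 12760 genes, and adjusted p-values are Benjamini-Hochberg values from that fit. A gene is said to have risen or fallen at an adjusted p under 0.05.

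Transforming growth factor beta 1 restrains T cells and drives hepatic stellate cells to make matrix, and mice without it develop inflammation of several organs. Interferon gamma is the main cytokine of Th1, cytotoxic and natural killer cells. Its receptor, made of Ifngr1 and Ifngr2, activates the kinases Jak1 and Jak2. The response acts on genes through the GAS element, and the factors Irf1, Irf8 and Irf9 bind the related ISRE element. The targets include guanylate-binding proteins and immunity-related GTPases, which attack the vacuoles of intracellular pathogens, the chemokines that draw T cells through Cxcr3, and the machinery of antigen presentation.

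Promoter stretches are shown for some genes of this pathway that fell. They are a choice among genes with a match, so they do not give the share of falls with a match. The bases are from RefSeq, build GRCm38.p6, written 5′ to 3′ on the gene's strand. Capitals mark a match to TTCNNNGAA (GAS) or GAAANNGAAA (ISRE core) on either strand, and overlapping matches are joined.
Irf1, chr11:53769904-53769952, plus strand: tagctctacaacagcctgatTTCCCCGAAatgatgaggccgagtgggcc
Gbp2, chr3:142620584-142620633, plus strand: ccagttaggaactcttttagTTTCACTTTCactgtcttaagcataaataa
Gbp2b, chr3:142594690-142594739, plus strand: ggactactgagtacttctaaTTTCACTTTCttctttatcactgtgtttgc
Gbp3, chr3:142559979-142560034, plus strand: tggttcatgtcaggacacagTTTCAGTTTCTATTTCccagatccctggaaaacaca
Igtp, chr11:58199491-58199551, plus strand: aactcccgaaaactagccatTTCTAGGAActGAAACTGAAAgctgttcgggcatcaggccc
Irgm2, chr11:58214882-58214942, plus strand: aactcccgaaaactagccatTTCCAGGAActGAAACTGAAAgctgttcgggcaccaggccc
Irgm1, chr11:48871421-48871470, minus strand: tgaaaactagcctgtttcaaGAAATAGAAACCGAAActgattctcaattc
Cxcl10, chr5:92349073-92349122, minus strand: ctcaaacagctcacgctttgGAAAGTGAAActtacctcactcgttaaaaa
Psmb8, chr17:34198078-34198126, plus strand: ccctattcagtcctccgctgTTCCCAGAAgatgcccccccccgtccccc
Socs1, chr16:10785584-10785639, minus strand: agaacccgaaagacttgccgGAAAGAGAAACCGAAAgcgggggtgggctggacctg
The stretches of Igtp and Irgm2 are near copies, with 59 of 61 bases the same, and both hold a GAS match and then an ISRE core match. Irgm1 and Socs1 each hold 2 overlapping ISRE core matches. The 250 bases before the start site were searched in every gene with a promoter in the RefSeq table. Of 32851 promoters, 7.02% held a GAS match and 2.98% an ISRE core match. Among the 277 genes that fell and have a promoter there, 11.9% held a GAS match and 12.6% an ISRE core match, and among the 251 that rose the shares were 7.17% and 3.98%. Among all 10293 tested genes with a promoter they were 7.23% and 3.16%. All 4 guanylate-binding protein genes with a promoter in the table held an ISRE core match, as did 3 of 4 immunity-related GTPase genes. Of the 12 largest falls with a promoter, 6 held an ISRE core match and 3 a GAS match, and of the 12 largest rises with a promoter, 0 held either. A match describes the letters only.

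One array stood apart in median signal and rank correlation. The array IFNko TGFB1 KO 1 had a median deposited signal of 61.3, against 33.8 to 42.6 in the other 11 arrays, and its rank correlations with them lay between 0.754 and 0.809, below the 0.816 to 0.912 among those 11. Counts of the gene lists described at length are therefore also given without it. The ratio of 3′ to 5′ signal of Actb was 1.33 to 1.55 in TGFB KO and 1.61 to 1.76 in IFNko TGFB1 KO, without overlap, while that of Gapdh was 0.738 to 1.07 and 0.748 to 0.894. The part of RNA quality in the results was not tested. By their expression of sex-linked genes, each of the 2 groups held 1 female and 2 males. Summed signal of 21 hepatocyte markers was 224882 to 242922 in TGFB KO and 169114 to 228443 in IFNko TGFB1 KO, the largest of the 16 cell type sums in both groups. Within its group, IFNko TGFB1 KO 2 had the lowest normalised signals of the hepatocyte markers Tdo2 (947, 221 and 1820) and Mat1a (4134, 2438 and 5798). The same held for Cps1 (9913, 6241 and 10621) and F2 (7146, 5225 and 8088). That array was the highest of its group for Lum and Postn, though not for Reln.

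The targeted genes were read first. Tgfb1 had deposited signals of 71.2, 87.6 and 45.5 in TGFB KO and 24.9, 52.1 and 43.8 in IFNko TGFB1 KO. The wild-type arrays gave 390.9, 455 and 110 for the same probe set. On this probe set all Tgfb1-deficient arrays lay below all wild-type arrays. A second Tgfb1 probe set was dim and overlapped, with 45.6, 49.4 and 35.2 in TGFB KO, 97.9, 44.6 and 22.2 in IFNko TGFB1 KO and 27.8, 55.7 and 41.8 in wild type. On the first, the 2 deficient groups did not differ past the threshold (log2 fold change -0.72 ± 0.44, adjusted p = 0.375). Ifng had deposited signals of 85.9, 94.3 and 201.6 in TGFB KO and 83.9, 54.3 and 44.6 in IFNko TGFB1 KO, with -1.01 ± 0.30 and an adjusted p of 0.0784 after normalisation. It had 23.3, 25.9 and 5.95 in wild type and 7.56, 1.06 and 7.45 in INFko TGFB+. The arrays labelled IFNko TGFB1 KO thus lay above every array with Tgfb1 for this probe set, and the INFko TGFB+ arrays were near the floor. The sources used here do not give the place of this probe set in relation to the deleted part, and it therefore checks the label neither way.

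About as many genes fell as rose with Ifng lacking, and the falls were larger. Of 12760 genes, 684 (5.36%) changed, of which 324 rose (2.54%) and 360 fell (2.82%). The median change was -1.37 among those that fell and 1.02 among those that rose, against 0.02 over all genes tested. A change of at least 2-fold was found for 271 of those that fell (2.12% of genes tested) and 166 of those that rose (1.3%). Whatever their p, 1679 genes (13.2%) had all 3 double-deficient arrays above all 3 TGFB KO arrays, and 1266 (9.92%) had them below. Among 4081 probe sets with no or several gene symbols, tested apart, 16 rose (0.392%) and 40 fell (0.98%). The split depends on the scaling, since with arrays centred on their medians 100 genes rose and 387 fell, and the median of all genes moved to -0.14. Without TGFB KO 1 138 genes rose and 189 fell, without TGFB KO 2 151 rose and 212 fell, and without IFNko TGFB1 KO 1 173 rose and 243 fell. The plot of change against p shows the targets of interferon gamma at the left and matrix, T cell and cell cycle genes at the right.

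**Figure D1:**
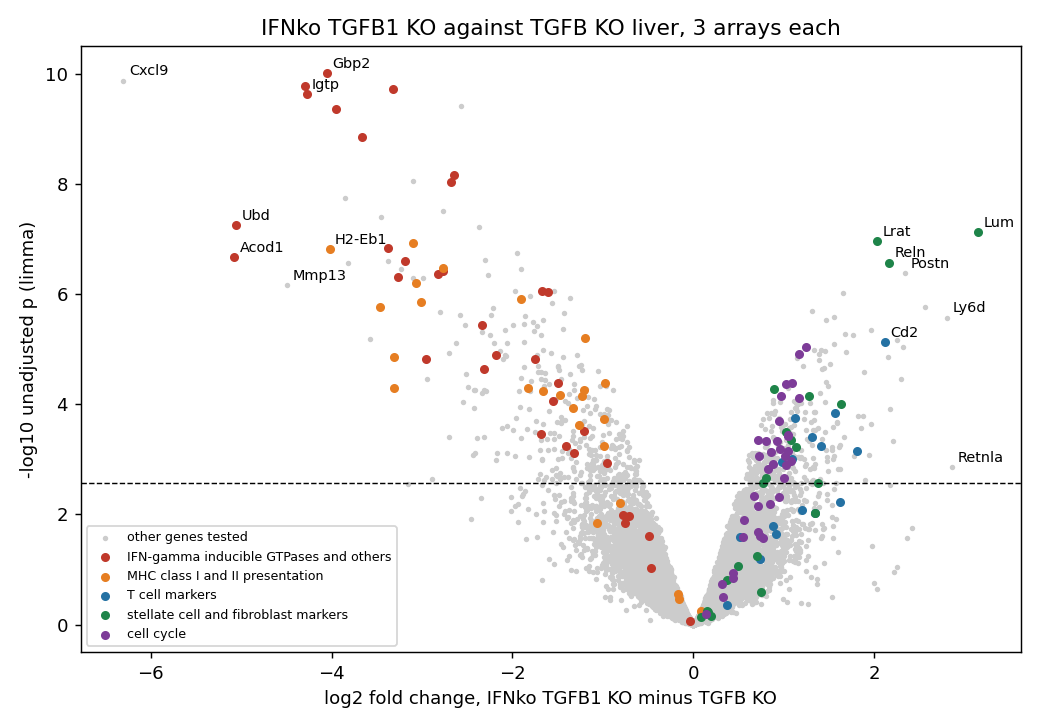
Log2 fold change of 12760 genes (x axis, IFNko TGFB1 KO minus TGFB KO) against -log10 of the unadjusted limma p (y axis), 1 point per gene, 3 arrays per group; colours mark gene lists and the dashed line the largest unadjusted p with an adjusted p under 0.05. Cxcl9 (-6.30) lies farthest left and Lum (3.15) farthest right of the named genes.

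Among genes of interferon gamma reception and signalling, several transcription factors and the inhibitor Socs1 fell, while the receptor chains and Jak kinases did not change past the threshold. Of 18 tested genes of this list 8 fell and 0 rose, with a median of -0.84. Irf1, a factor that interferon gamma induces directly, had normalised signals of 2552, 1792 and 1831 in TGFB KO and 385, 506 and 327 in IFNko TGFB1 KO (-2.30 ± 0.21, adjusted p = 0.000123). The higher group did not overlap the lower. Irf8, a factor of macrophages and dendritic cells, went from 2978, 2013 and 2286 to 534, 775 and 513 (-1.97). Batf2, which acts with Irf1 in macrophages, went from 565, 353 and 261 to 20.4, 71.8 and 52.2 (-2.70). Socs1, which blocks Jak kinases and is itself a target, fell by 2.06 on the log2 scale, from 165, 140 and 117 to 12.9, 21.2 and 32.5. Ciita, the master switch of MHC class II genes, fell from 461, 322 and 115 to 6.54, 24.6 and 7.39 (-3.31 ± 0.53, adjusted p = 0.00427), and Nlrc5, its counterpart for class I, fell from 618, 437 and 651 to 207, 158 and 139. The receptor chains Ifngr1 (-0.07 ± 0.27, adjusted p = 0.915) and Ifngr2 (-0.16 ± 0.24, adjusted p = 0.76) overlapped between groups. So did the kinases Jak1 (0.31 ± 0.20) and Jak2 (-0.08 ± 0.18). Stat3 (-0.85) and Irf9 (-0.82) fell less. Stat2 (-0.73 ± 0.24, adjusted p = 0.114) and the inhibitors Socs3 (-1.22 ± 0.41, adjusted p = 0.119), Pias1 (0.23 ± 0.21), Ptpn2 (0.18 ± 0.21) and Ptpn6 (-0.39 ± 0.16) did not pass. A second probe set of Stat2 fell by 1.77, with an adjusted p of 0.00911 in a limma fit over probe sets, so the probe sets of this gene differ. The list's count was 6 without IFNko TGFB1 KO 1 and 5 without TGFB KO 1 or TGFB KO 2. The call of Batf2 was lost without TGFB KO 1 (adjusted p = 0.0738), TGFB KO 2 (adjusted p = 0.0507) or IFNko TGFB1 KO 1 (adjusted p = 0.0581), that of Irf9 without TGFB KO 1 (adjusted p = 0.0858), TGFB KO 2 (adjusted p = 0.0502) or IFNko TGFB1 KO 1 (adjusted p = 0.0702) and that of Stat3 without TGFB KO 1 (adjusted p = 0.0725) or TGFB KO 2 (adjusted p = 0.0576).

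All 6 tested guanylate-binding proteins fell, by a median of -3.36. These large GTPases coat pathogen vacuoles and help to open them. Gbp2b had 4209, 3706 and 4066 in TGFB KO and 173, 251 and 152 in IFNko TGFB1 KO (-4.30 ± 0.20, adjusted p = 5.96e-07). Gbp2, whose promoter stretch with its ISRE core match is shown above, went from 3953, 4714 and 3917 to 245, 251 and 215 (-4.06 ± 0.18, adjusted p = 5.96e-07). Gbp6 went from 4499, 3069 and 3751 to 282, 173 and 238 (-3.95 ± 0.20). In each of these 3 genes every double-deficient array lay far below every TGFB KO array, and the wild-type arrays of Gbp2 were at 365, 236 and 269. Gbp3 (-2.77 ± 0.27), Gbp7 (-2.68 ± 0.18) and Gbp8 (-2.34 ± 0.28) fell less. Gbp4, Gbp5, Gbp9, Gbp10 and Gbp11 have no single-symbol probe set and were not tested, and probes within this family may match more than 1 member. The count stayed at 6 without any 1 array.

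All 5 tested immunity-related GTPases fell, by a median of -3.38, and to levels under those of livers with Tgfb1. Igtp had 6420, 7271 and 6803 in TGFB KO and 287, 428 and 310 in IFNko TGFB1 KO (-4.28 ± 0.21, adjusted p = 5.96e-07), against 1046, 659 and 869 in wild type and 612, 620 and 486 in INFko TGFB+. The double-deficient arrays were the lowest of the 12. Irgm1, which governs the other members on membranes, went from 1753, 1782 and 1937 to 194, 175 and 141 (-3.32 ± 0.16), with 570, 485 and 461 in wild type. Irgm2, whose promoter stretch nearly copies that of Igtp, went from 1819, 1316 and 1638 to 96.99, 96.96 and 140 (-3.66 ± 0.21). Iigp1 was the brightest member, with 14398, 13598 and 14063 in TGFB KO, 1740, 886 and 1529 in IFNko TGFB1 KO and 4447, 2460 and 5290 in wild type (-3.38 ± 0.30). Ifi47 went from 2864, 2423 and 3029 to 404, 433 and 444 (-2.65 ± 0.18). In all 5 genes each double-deficient array lay below each of the 6 arrays with Tgfb1, which is given as levels without a test. The count stayed at 5 without any 1 array.

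The 3 ligands of Cxcr3 fell while the receptor rose. These chemokines are induced by interferon gamma and draw activated T cells and natural killer cells. Cxcl9 was the largest fall of all genes that the naming rule covers, with 5770, 5290 and 6211 in TGFB KO and 50.5, 51.9 and 69.8 in IFNko TGFB1 KO (-6.30 ± 0.29, adjusted p = 5.96e-07). Its wild-type arrays had 281, 115 and 305, so every double-deficient array was also below every wild-type array. Cxcl11 went from 889, 604 and 1105 to 71.6, 43.95 and 55.4 (-3.57 ± 0.46, adjusted p = 0.00105). Cxcl10, with an ISRE core match shown above, went from 1310, 937 and 877 to 176, 120 and 122 (-2.77 ± 0.21, adjusted p = 3.08e-05). Cxcr3 moved the other way, from 130, 99.0 and 123 to 287, 582 and 301 (1.54 ± 0.30, adjusted p = 0.0122), without overlap. That rise was lost without TGFB KO 2 (adjusted p = 0.0542) and with only the 6 arrays in the fit. The 3 ligand calls were kept in each alternative run.

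**Figure D2:**
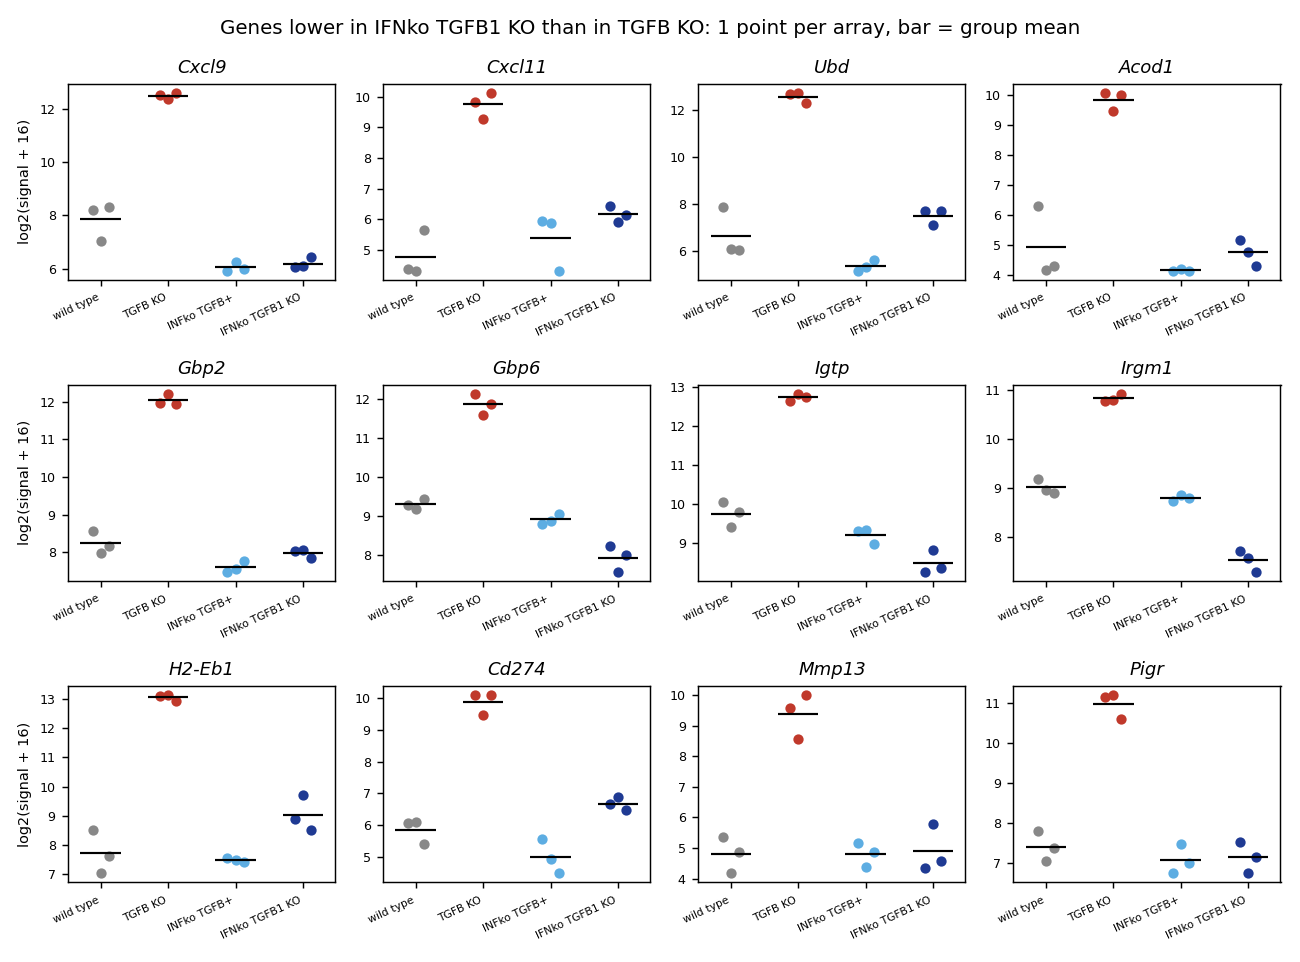
Log2 of normalised signal plus 16 (y axis) in each of the 12 arrays, in 4 groups of 3 (x axis), for 12 genes that fell; 1 point per array, with the group mean as a bar. The TGFB KO arrays lie above the IFNko TGFB1 KO arrays in every panel, from -6.30 for Cxcl9 to -3.19 for Cd274.

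Many MHC class II genes, which present peptides to CD4 T cells, fell, some of them to levels between TGFB KO and wild type. Of 9 tested genes of the list 6 fell and 0 rose, with a median of -3.10. H2-Eb1 had 8862, 9046 and 7763 in TGFB KO, 458, 831 and 347 in IFNko TGFB1 KO and 346, 115 and 180 in wild type (-4.02 ± 0.36, adjusted p = 9.21e-05). The double-deficient arrays of H2-Eb1 lay between the 2 other groups without overlap. H2-Aa went from 10767, 11017 and 9954 to 1120, 2134 and 800 (-3.07 ± 0.31) and H2-Ab1 from 5948, 5735 and 6408 to 730, 872 and 512 (-3.10 ± 0.27). Cd74, the invariant chain, went from 13182, 13432 and 9707 to 993, 2558 and 664 (-3.31 ± 0.46). H2-DMa, which helps peptides to load, fell from 2020, 1833 and 1403 to 68.8, 262 and 150 (-3.47 ± 0.39), though a second probe set of it gave -1.24 and did not pass. Wild type had 915, 388 and 320 for Cd74 and 108, 51.6 and 50.02 for H2-DMa, which overlapped the double-deficient arrays. The factor Rfx5 (-0.16 ± 0.16), the protease Ctss (-0.81 ± 0.24, adjusted p = 0.0819) and H2-DMb2 (-1.07 ± 0.37) did not pass. H2-Oa and H2-Ob were under the signal filter. The count was 6 without IFNko TGFB1 KO 1. Summed signal of 14 dendritic cell markers was 3039 to 3964 in TGFB KO and 2258 to 2405 in IFNko TGFB1 KO. Of 8 tested markers 6 had a positive change, and the median was 0.21. Only 1 fell, Bst2 (2081, 1781 and 1627 to 384, 493 and 511), which is also in the list of type I interferon responders below. The part of dendritic cells in the class II falls was not tested. Stretches of 2 class II promoters are shown for another element, the CCAAT box, in capitals here on either strand.
H2-Eb1, chr17:34305788-34305856, plus strand: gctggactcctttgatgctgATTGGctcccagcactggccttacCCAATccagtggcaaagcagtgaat
H2-Aa, chr17:34287847-34287891, minus strand: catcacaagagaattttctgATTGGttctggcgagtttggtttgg
Of the 6 tested class II genes with a promoter in the table, 2 held a GAS or ISRE core match and 5 a CCAAT match. A CCAAT match was also held by 9 of 13 tested class I and immunoproteasome genes (69.2%). Counted by promoter, 33.8% of all promoters held one. Counted by gene, 37.5% of all genes with a promoter held one, as did 4117 of the 10293 tested genes. Among genes that fell 110 of 277 did (39.7%), close to the share of all tested genes. Among genes that rose 118 of 251 did (47.0%).

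MHC class I loading and the immunoproteasome fell nearly as a whole list, by less than class II. Of 16 tested genes 14 fell and 0 rose, with a median of -1.25. Tap1, a peptide transporter subunit, fell by 3.01 on the log2 scale, from 1153, 1235 and 1178 to 66.3, 237 and 145. The immunoproteasome subunits Psmb9 (3560, 3847 and 3080 to 352, 770 and 453, -2.77 ± 0.26), Psmb8 (-1.91 ± 0.21) and Psmb10 (-1.20 ± 0.15) fell as well. The class I heavy chain H2-K1 (-1.47 ± 0.24) and its light chain B2m (-0.97 ± 0.15) fell too. Probes of heavy chains may match other class I genes. The count was 13 without IFNko TGFB1 KO 1.

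Genes best known as responders to type I interferon also fell. Of 27 tested genes of that list 20 fell and 0 rose, with a median of -1.47, and all 27 had a negative change. Ifit2, which binds viral RNA, had 870, 882 and 794 in TGFB KO and 126, 133 and 128 in IFNko TGFB1 KO (-2.57 ± 0.13, adjusted p = 7.98e-07). Usp18, which restrains the type I receptor, went from 750, 882 and 1212 to 235, 127 and 217 (-2.22 ± 0.25). Bst2, a tether of virus particles, went from 2081, 1781 and 1627 to 384, 493 and 511 (-1.95 ± 0.18), and the mono-ADP-ribosylation factor Parp9 from 1412, 1373 and 1152 to 409, 440 and 476. Zbp1, a nucleic acid sensor, changed by -2.80 ± 0.32, and Oasl2 by -2.53 ± 0.31. Ifit2 in the double-deficient arrays was above its wild-type arrays (95.6, 96.7 and 101), whereas those of Parp9 were below theirs (696, 645 and 513). The count was 18 without IFNko TGFB1 KO 1 and 15 without TGFB KO 1. Many genes of this list are also induced by interferon gamma, so the list's name does not tell which interferon they followed.

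Other effectors of the interferon gamma response gave some of the steepest falls. Of 24 tested genes of a further list 18 fell and 0 rose, with a median of -1.58. The count was 15 without IFNko TGFB1 KO 1 and 13 without TGFB KO 1. Ubd, a ubiquitin-like modifier, had 6362, 6730 and 5014 in TGFB KO and 190, 120 and 195 in IFNko TGFB1 KO (-5.05 ± 0.41, adjusted p = 4.82e-05). Acod1, the macrophage enzyme that makes itaconate, had 1067, 694 and 1004 and 20.5, 11.6 and 4.05 (-5.08 ± 0.46, adjusted p = 0.000117), the latter within the low range of the array. Cd274, which encodes PD-L1, the ligand that inhibits T cells through PD-1, had 1070, 680 and 1058 and 85.2, 103 and 72.9 (-3.19 ± 0.30). The second PD-1 ligand, Pdcd1lg2, changed by -1.41 ± 0.30, from 170, 121 and 109 to 38.1, 52.1 and 29.97, and its call was lost without TGFB KO 1 (adjusted p = 0.088), TGFB KO 2 (adjusted p = 0.0562), IFNko TGFB1 KO 1 (adjusted p = 0.0571) or IFNko TGFB1 KO 3 (adjusted p = 0.0539). Upp1, which splits uridine, went from 723, 476 and 1024 to 114, 65.9 and 83.2 (-2.83 ± 0.28). The activating Fc receptor Fcgr4 changed by -3.27 ± 0.32, and the complement protein C2 by -1.67 ± 0.18.

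Among the 15 largest falls, 4 genes belong to no interferon list. Mmp13, a collagenase, had 757, 360 and 1014 in TGFB KO and 4.18, 38.9 and 7.77 in IFNko TGFB1 KO (-4.49 ± 0.46, adjusted p = 0.000218). Its double-deficient arrays overlapped the wild-type ones (25.2, 2.14 and 12.98). Pigr, which carries dimeric IgA across epithelium, went from 2259, 2353 and 1543 to 167, 91.96 and 125 (-3.85 ± 0.28, adjusted p = 1.92e-05). Apol11b, an apolipoprotein L family member, went from 751, 464 and 301 to 32.01, 6.58 and 22.6 (-3.81 ± 0.36). Ly6i, a small surface protein, went from 208, 164 and 404 to 10.8, 3.92 and 8.14 (-3.45 ± 0.27). The promoter of Apol11b held a GAS and an ISRE core match, starting 241 and 50 bases before the start site. In all 15 of the largest falls every TGFB KO array lay above every array with Tgfb1. In 3 of them (Igtp, Irgm2 and Gbp6) every double-deficient array lay below the arrays with Tgfb1. These genes were chosen by high TGFB KO values, and the share over all genes was not counted, so this describes levels only. Acod1, Mmp13 and Ly6i were dim outside TGFB KO and passed the signal filter through their TGFB KO arrays.

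Some genes that fell were neighbours in the genome. By gene order in GRCm38.p6, 68 of 360 genes that fell (18.9%) were next to another tested gene that fell, and 30 of 324 (9.26%) of those that rose were next to another that rose. Of all 12738 tested genes with a place there, 5.42% were next to a gene that fell and 4.99% next to one that rose. These shares are a description. The longest run was 9 genes on chromosome 17, from Psmb9, Tap1, Psmb8 and Tap2 through H2-Ab1, H2-Aa, H2-Eb1 and H2-Ea to Btnl2. On chromosome 3 Gbp7, Gbp3, Gbp2b and Gbp2 formed a run of 4. Runs of 3 included Cd274, Pdcd1lg2 and Ric1 on chromosome 19, and Parp14, Dtx3l and Parp9 on chromosome 16. Neighbouring family members may share probes. Strain segments around a targeted gene were also read. Of the 20 tested genes nearest to Ifng 0 changed, and of the 20 nearest to Tgfb1 3 fell (Cyp2g1, Cyp2a12 and Cyp2f2), against 2.82% of all genes tested.

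Genes of glucose uptake and glycolysis fell in part. Of 24 tested genes of glucose metabolism 6 fell and 0 rose, with a median of -0.28, and the 6 are uptake and glycolytic genes rather than genes of glucose production. Hk2, a hexokinase, had 1155, 570 and 886 in TGFB KO and 148, 198 and 216 in IFNko TGFB1 KO (-2.08 ± 0.26, adjusted p = 0.000792). Slc2a1, the glucose transporter GLUT1, went from 2445, 1273 and 2250 to 551, 405 and 595 (-1.87 ± 0.27, adjusted p = 0.00223). Hk3, a hexokinase of myeloid cells, went from 451, 600 and 638 to 33.1, 170 and 117 (-2.42 ± 0.39) and Pfkp, a phosphofructokinase, from 1385, 970 and 1407 to 294, 570 and 377 (-1.59 ± 0.28). The count was 4 without IFNko TGFB1 KO 1.

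Inflammatory genes of myeloid cells were lower in part, while the marker sums of those cells overlapped between groups. The chemokine Cxcl2 fell from 431, 272 and 1305 to 40.3, 80.3 and 52.0 (-2.95 ± 0.45, adjusted p = 0.00325), the formyl peptide receptor Fpr2 from 2420, 2227 and 2781 to 503, 932 and 638 (-1.86 ± 0.22, adjusted p = 0.00053) and the cytokine Il1b from 1469, 901 and 1312 to 529, 431 and 297 (-1.52 ± 0.26). Over all genes tested 2.82% fell and 2.54% rose. Of 23 tested neutrophil and monocyte markers 3 fell and 0 rose, and 2 fell without IFNko TGFB1 KO 1. Their summed signal was 35375 to 50524 in TGFB KO and 32807 to 76014 in IFNko TGFB1 KO, and that of 23 Kupffer cell and macrophage markers was 62264 to 67227 and 52035 to 71842. Of 23 tested Kupffer cell and macrophage markers 2 rose and 0 fell, with or without IFNko TGFB1 KO 1. These were Folr2, a folate receptor of resident macrophages (128, 105 and 160 to 431, 438 and 575, 1.76 ± 0.22), and Cd209f, a C-type lectin (15.8, 58.2 and 27.3 to 236, 260 and 288, 2.57 ± 0.29, adjusted p = 0.000418). Cd209f had 153, 164 and 255 in wild type, so TGFB KO was the low group. The part of cell numbers in these results was not tested.

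Some death and stress genes fell, where 2.82% of all genes tested fell. Of 25 tested genes of apoptosis, death receptors and caspases 4 fell and 0 rose, and 22 had a negative change, with a median of -0.49. The count of falls was 1 without IFNko TGFB1 KO 1, 0 without TGFB KO 1 or TGFB KO 2 and 2 without TGFB KO 3. Tnfsf10, the death ligand TRAIL, went from 207, 238 and 126 to 20.9, 84.96 and 49.9 (-1.68 ± 0.33, adjusted p = 0.0148), a call lost without TGFB KO 1 (adjusted p = 0.0628) or TGFB KO 2 (adjusted p = 0.0641). The death receptor Fas went from 390, 531 and 553 to 204, 180 and 280 (-1.10 ± 0.27, adjusted p = 0.0361), a call lost without TGFB KO 1 (adjusted p = 0.0555), TGFB KO 2 (adjusted p = 0.121), TGFB KO 3 (adjusted p = 0.0972), IFNko TGFB1 KO 1 (adjusted p = 0.0959) or IFNko TGFB1 KO 2 (adjusted p = 0.0869). Of 20 tested genes of endoplasmic reticulum and amino acid stress 2 fell, and 1 without IFNko TGFB1 KO 1 or without any 1 of the TGFB KO arrays. Ddit3, the stress factor CHOP, was one of them, from 511, 291 and 320 to 75.2, 99.2 and 131 (-1.71 ± 0.25, adjusted p = 0.00221). A second probe set of Ddit3 gave -0.90 and did not pass.

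Many stellate cell and fibroblast genes rose. Hepatic stellate cells store vitamin A and make matrix when activated. Of 21 tested markers 12 rose and 0 fell, all 21 had a positive change, and the median was 0.89. Lum, a small proteoglycan that binds collagen fibrils, was the largest rise, with 269, 196 and 345 in TGFB KO and 1953, 3627 and 2098 in IFNko TGFB1 KO (3.15 ± 0.26, adjusted p = 5.6e-05). The double-deficient arrays were also above the wild-type arrays (528, 650 and 739). Reln, a secreted glycoprotein made by stellate cells, went from 852, 927 and 610 to 4012, 3647 and 3108 (2.16 ± 0.20, adjusted p = 0.000124), and Lrat, which esterifies retinol for storage, from 139, 185 and 181 to 819, 829 and 583 (2.04 ± 0.18, adjusted p = 7.85e-05). For both, TGFB KO lay below wild type (Reln 2866, 3896 and 2799, Lrat 382, 381 and 400). A second probe set of Reln gave 0.78 and did not pass. The contractile gene Tagln (1.63 ± 0.28) and the growth factor receptor Pdgfra (1.28 ± 0.21) rose too, and lost their calls only with the 6 arrays alone in the fit.

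Summed signal of 22 stellate cell and fibroblast markers was 14664 to 17139 in TGFB KO and 26592 to 40140 in IFNko TGFB1 KO, with 20623 to 23012 in wild type. The part of the number of such cells was not tested. The count of 12 fell to 8 without IFNko TGFB1 KO 1, to 6 without TGFB KO 1, to 8 without TGFB KO 2, to 5 with arrays centred on their medians and to 3 with only the 6 arrays in the fit.

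Matrix genes outside that list moved in both directions, where 2.54% of all genes tested rose and 2.82% fell. Of 41 tested genes of extracellular matrix and its remodelling 10 rose and 2 fell, with a median of 0.23, and 3 of the 10 (Lum, Dcn and Col3a1) are also in the stellate list. Without IFNko TGFB1 KO 1 8 rose and 2 fell, and with arrays centred on their medians 5 rose and 3 fell. Postn, a matricellular protein of activated fibroblasts, went from 1307, 912 and 1285 to 5921, 8048 and 4365 (2.35 ± 0.23, adjusted p = 0.00016), above wild type (1365, 1439 and 1225). Col14a1, a collagen on the surface of fibrils, went from 925, 839 and 897 to 2438, 2272 and 2001 (1.32 ± 0.15, adjusted p = 0.000485). The gelatinase Mmp2 (1.41 ± 0.23) and the inhibitor Timp2 (1.51 ± 0.22) rose, and the inhibitor Timp3 (-2.34 ± 0.29) fell with Mmp13. Igfbp3, which binds insulin-like growth factors, went from 242, 204 and 161 to 779, 589 and 642 (1.66 ± 0.18, adjusted p = 0.000271), to the wild-type level (664, 734 and 752). Of 28 tested genes of transforming growth factor beta ligands, receptors, Smads and targets 2 rose and 0 fell. They were Tgfbr3, a co-receptor (290, 294 and 360 to 699, 923 and 549, 1.14 ± 0.19), and Bambi, a pseudoreceptor (0.81 ± 0.17). In each fit without IFNko TGFB1 KO 1, TGFB KO 1 or TGFB KO 3 1 of the 28 rose. Both calls were lost with arrays centred on their medians, and that of Bambi also without TGFB KO 1 (adjusted p = 0.0581), TGFB KO 3 (adjusted p = 0.0621) or IFNko TGFB1 KO 1 (adjusted p = 0.0595).

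**Figure D3:**
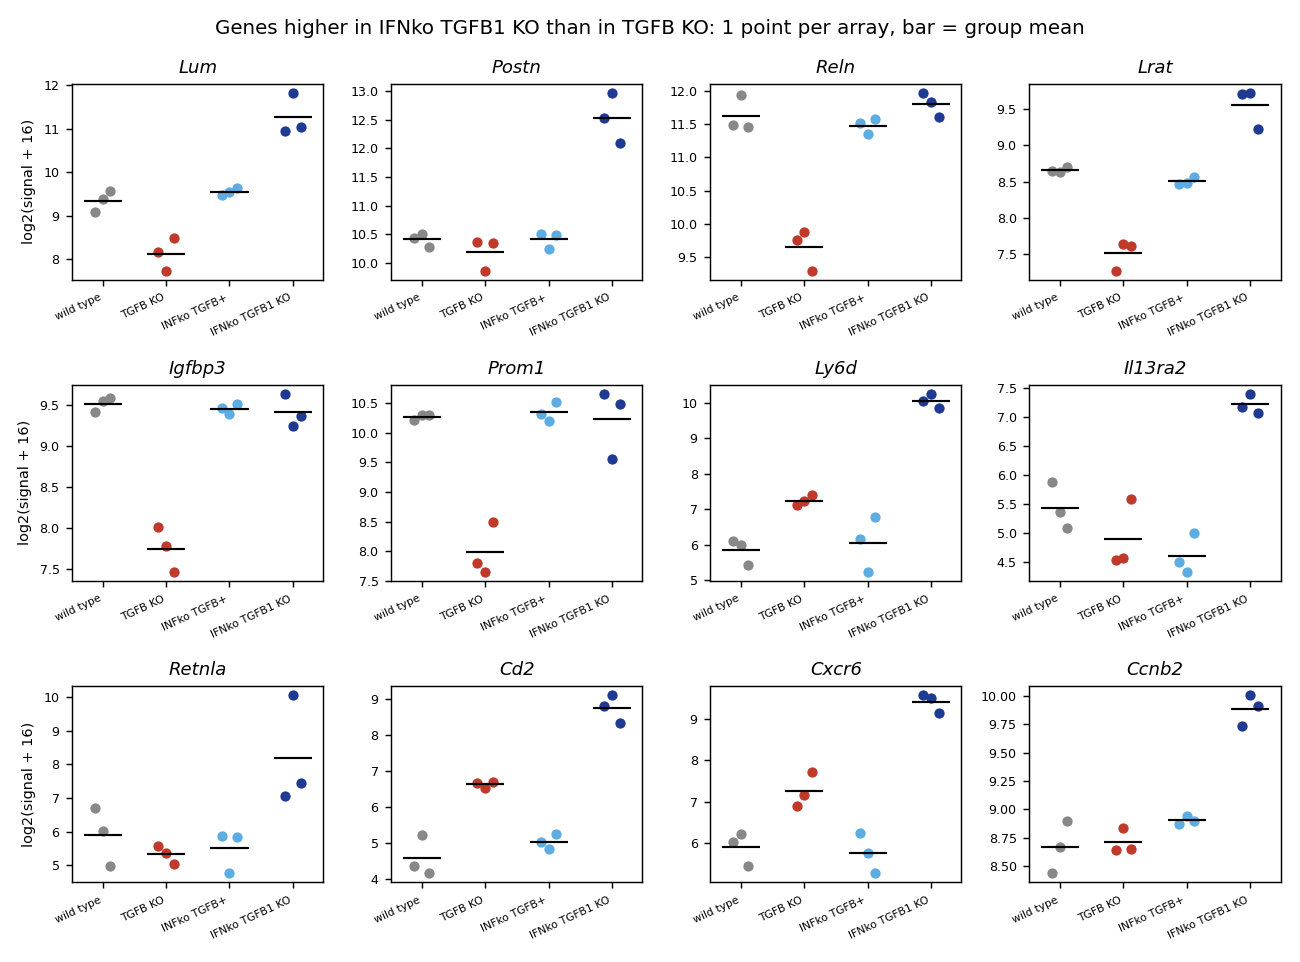
Log2 of normalised signal plus 16 (y axis) in each of the 12 arrays, in 4 groups of 3 (x axis), for 12 genes that rose; 1 point per array, with the group mean as a bar. Lum, Postn, Ly6d, Cd2 and Cxcr6 lie above all other groups in IFNko TGFB1 KO, while Reln, Igfbp3 and Prom1 lie low in TGFB KO and near wild type in IFNko TGFB1 KO.

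T cell genes rose, while the chemokines that draw T cells through Cxcr3 fell. Of 16 tested T cell markers 8 rose and 0 fell, all 16 had a positive change, and the median was 1.17. Cd2, an adhesion molecule of T and natural killer cells, had 86.02, 77.6 and 87.6 in TGFB KO and 434, 539 and 311 in IFNko TGFB1 KO (2.12 ± 0.28, adjusted p = 0.00113), with 4.74, 21.6 and 2.08 in wild type. Every double-deficient array was above every TGFB KO array. Cd3g, a chain of the T cell receptor complex, went from 203, 224 and 214 to 774, 762 and 496 (1.57 ± 0.28, adjusted p = 0.00857). Cxcr6, a chemokine receptor of T cells lodged in liver, went from 103, 128 and 194 to 750, 712 and 546 (2.15 ± 0.30, adjusted p = 0.00164). The CD8 chain Cd8b1 (1.41 ± 0.30) rose as well, a call lost without TGFB KO 1 (adjusted p = 0.0734) or TGFB KO 2 (adjusted p = 0.0665). The call of Cd2 was lost with a pseudocount of 1 and that of Cd3g with array weights.

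Summed signal of 17 T cell markers was 1444 to 1780 in TGFB KO, 3485 to 5932 in IFNko TGFB1 KO and 437 to 526 in wild type, without overlap between any of these groups. For 10 natural killer cell markers it was 661 to 776 and 877 to 1129, and for 15 B and plasma cell markers 6463 to 8935 and 8201 to 8999, the latter with overlap. The part of the number of T cells in the rises was not tested. The count of T cell markers that rose was 5 without IFNko TGFB1 KO 1, 4 without TGFB KO 1 or TGFB KO 2, 5 without TGFB KO 3, and 2 with a pseudocount of 1 or with array weights.

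Among Th1 and cytotoxic effectors 5 of 18 tested genes rose and 1 fell, with a median of 0.67. Over all genes tested 2.54% rose and 2.82% fell. Stat4, the factor through which interleukin 12 acts, went from 60.8, 67.4 and 73.6 to 199, 203 and 166 (1.30 ± 0.24, adjusted p = 0.0109), and the cytotoxic cell protease Ctsw from 98.5, 84.8 and 86.8 to 239, 263 and 260 (1.35 ± 0.26). The gene that fell was Il12rb1, a receptor chain for interleukin 12 (-1.15 ± 0.29, adjusted p = 0.0461), a call lost without TGFB KO 1 (adjusted p = 0.147), TGFB KO 2 (adjusted p = 0.114), TGFB KO 3 (adjusted p = 0.0876), IFNko TGFB1 KO 1 (adjusted p = 0.111) or IFNko TGFB1 KO 3 (adjusted p = 0.0977). The call of Ctsw was lost without TGFB KO 2 (adjusted p = 0.0522). The count of rises was 2 without IFNko TGFB1 KO 1, 1 without TGFB KO 2, 3 without TGFB KO 3 and 3 without IFNko TGFB1 KO 2. Ly6d and S100a4, both made by more than 1 cell type, stood among the largest rises. Ly6d went from 123, 135 and 152 to 1057, 1212 and 908 (2.81 ± 0.33, adjusted p = 0.000563). S100a4, a calcium-binding protein of motile cells, went from 298, 322 and 243 to 1361, 2454 and 790 (2.21 ± 0.46, adjusted p = 0.0176), a call lost without TGFB KO 1 (adjusted p = 0.0595) or TGFB KO 3 (adjusted p = 0.0571).

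Genes of the type 2 response rose in part only. Interleukins 4 and 13 drive this response, which interferon gamma opposes. Of 17 tested genes of that list 3 rose and 2 fell, with a median of 0.38. The shares of all genes tested that rose and fell were 2.54% and 2.82%. Il13ra2, the decoy receptor of interleukin 13, rose in all 3 arrays, from 7.21, 7.54 and 32.1 to 128, 153 and 118 (2.32 ± 0.31, adjusted p = 0.0013). Retnla, a product of alternatively activated macrophages, went from 31.7, 25.1 and 16.9 to 117, 1054 and 159 (2.87 ± 0.68, adjusted p = 0.0343), and its level in IFNko TGFB1 KO 2 was far above the other 2. That call was lost without TGFB KO 1 (adjusted p = 0.0888), TGFB KO 2 (adjusted p = 0.0955) or TGFB KO 3 (adjusted p = 0.0891), with a pseudocount of 1 and with only the 6 arrays in the fit. Chil4 (11.8, 10.2 and 2.8 to 69.2, 53.4 and 26.7, 1.40 ± 0.36) was lost without TGFB KO 1 (adjusted p = 0.0958), TGFB KO 2 (adjusted p = 0.104), TGFB KO 3 (adjusted p = 0.118), IFNko TGFB1 KO 1 (adjusted p = 0.136) or IFNko TGFB1 KO 2 (adjusted p = 0.0936). The 2 that fell were Pdcd1lg2, given above, and the chemokine Ccl24 (1057, 950 and 1311 to 580, 747 and 317, -1.06 ± 0.27), lost without TGFB KO 1 (adjusted p = 0.11), TGFB KO 2 (adjusted p = 0.0801), TGFB KO 3 (adjusted p = 0.113), IFNko TGFB1 KO 1 (adjusted p = 0.0741) or IFNko TGFB1 KO 3 (adjusted p = 0.0696). Without IFNko TGFB1 KO 1 2 genes of the list rose and 0 fell. Without TGFB KO 1 or TGFB KO 2 1 rose and 0 fell, without TGFB KO 3 1 rose and 1 fell, without IFNko TGFB1 KO 2 2 rose and 2 fell, and without IFNko TGFB1 KO 3 4 rose and 0 fell.

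Other genes of this response did not pass the test. Ccl8 had 313, 138 and 334 in TGFB KO and 822, 3472 and 545 in IFNko TGFB1 KO (2.18 ± 0.58, adjusted p = 0.0519). Arg1, an enzyme of alternatively activated macrophages and of the hepatocyte urea cycle, had 9347, 9660 and 15560 and 5313, 5814 and 6656 (-0.92 ± 0.25, adjusted p = 0.0555). Mrc1 (0.48 ± 0.23), Clec10a (0.74 ± 0.41), Fcer2a (0.75 ± 0.46), Clec7a (0.17 ± 0.25), Il33 (0.14 ± 0.24), Chil3 (0.38 ± 0.51), the receptor chain Il4ra (-0.48 ± 0.25), Il13ra1 (-0.33 ± 0.26) and Stat6 (-0.24 ± 0.19) did not pass, and Il4, Il5 and Il13 were under the signal filter on all groups.

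The tested eosinophil genes differed more within the double-deficient group than between groups. Prg2, the major basic protein of eosinophil granules, had 47.2, 51.2 and 92.9 in TGFB KO and 5.62, 2956 and 720 in IFNko TGFB1 KO (2.23 ± 1.28, adjusted p = 0.355). Epx, eosinophil peroxidase, had 24.5, 5.61 and 20.2 and 11.4, 716 and 224 (2.42 ± 0.87, adjusted p = 0.143). The array IFNko TGFB1 KO 2, from the female of the group, was highest in both, and IFNko TGFB1 KO 1 was under the TGFB KO arrays for Prg2 and within their range for Epx. Prg3 (1.27 ± 0.60), Alox15 (1.60 ± 0.72) and Ccr3 (1.03 ± 0.37) did not pass either. Siglecf and Il5ra were under the signal filter and were not tested. The dim signals of Siglecf were 12.2, 17.5 and 8.79 in TGFB KO and 39.1, 62.0 and 40.9 in IFNko TGFB1 KO, without overlap. Those of Il5ra overlapped. Of 5 tested eosinophil genes 0 changed, with a median of 1.60, and without IFNko TGFB1 KO 1 4 rose. Summed signal of 7 eosinophil markers was 117 to 191 in TGFB KO, 106 to 4447 in IFNko TGFB1 KO and 592 to 1044 in INFko TGFB+.

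Of 23 tested endothelial markers 4 rose and 1 fell, with a median of -0.06, where 2.54% of all genes tested rose and 2.82% fell. The rises were 2 without IFNko TGFB1 KO 1, TGFB KO 2 or TGFB KO 3 and 1 without IFNko TGFB1 KO 2, and the fall was lost without TGFB KO 1, TGFB KO 2 or IFNko TGFB1 KO 1. Rspo3, a Wnt enhancer made by the endothelium of central veins, went from 23.2, 46.2 and 45.7 to 169, 188 and 118 (1.69 ± 0.23, adjusted p = 0.00149). Of 11 tested cholangiocyte markers 2 rose and 0 fell, and 1 rose without IFNko TGFB1 KO 1, TGFB KO 1 or TGFB KO 3. Prom1, a membrane protein of bile duct and progenitor cells, went from 207, 185 and 346 to 1604, 739 and 1423 (2.26 ± 0.29, adjusted p = 0.00108), with 1179, 1250 and 1245 in wild type. TGFB KO was thus the low group for Prom1, and the double-deficient arrays spanned the wild-type range. Meg3, an imprinted noncoding RNA, went from 571, 290 and 483 to 1749, 2740 and 2183 (2.30 ± 0.35), and 2 of its 10 other probe sets passed too. Npr3, a clearance receptor for natriuretic peptides, changed by 2.18 ± 0.38, with 2 other probe sets at 0.85 and 0.38 that did not pass. Cpxm1, a secreted protein of the carboxypeptidase family, changed by 1.97 ± 0.37 and was not called with only the 6 arrays in the fit.

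Cell cycle genes rose together on the main scale, and their calls were lost with arrays centred on their medians. Summed signal of 36 such genes was 16599 to 19863 in TGFB KO and 31342 to 36552 in IFNko TGFB1 KO. Of 36 tested genes of cell cycle and DNA replication 22 rose and 0 fell, all 36 had a positive change, and the median was 0.87. Ube2c, which marks mitotic proteins for destruction, went from 932, 1151 and 857 to 2632, 2289 and 2096 (1.25 ± 0.17, adjusted p = 0.0013). Ccnb2, a mitotic cyclin, went from 383, 441 and 386 to 837, 1014 and 946 (1.17 ± 0.16, adjusted p = 0.00159), and Stmn1, a regulator of microtubules, from 1534, 1425 and 1048 to 2989, 3039 and 2516 (1.10 ± 0.17). The arrays did not overlap in these 3 genes. With arrays centred on their medians 0 of the 36 rose, with only the 6 arrays 2 rose, without IFNko TGFB1 KO 1 11, without TGFB KO 1 12, without TGFB KO 2 14 and without TGFB KO 3 13. Which dividing cells these were was not tested.

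Some genes of hepatocyte metabolism changed, mostly downward. Over all genes tested 2.82% fell and 2.54% rose. Of 58 tested genes of cytochrome P450 and conjugation enzymes 5 fell and 1 rose, of 33 genes of the urea cycle and amino acid catabolism 3 fell and 0 rose, and of 32 genes of bile acid synthesis and transport 4 fell and 0 rose. Without IFNko TGFB1 KO 1 these falls were 6, 0 and 4. Without TGFB KO 1 they were 2, 0 and 2, without TGFB KO 2 2, 2 and 3, without TGFB KO 3 5, 0 and 3, and without IFNko TGFB1 KO 3 6, 7 and 8. The P450 list gave 5 rises without IFNko TGFB1 KO 2. Baat, which joins bile acids to taurine, went from 388, 530 and 438 to 69.0, 34.5 and 69.3 (-2.70 ± 0.37, adjusted p = 0.00157), though a second probe set gave -0.95 and did not pass. Cyp39a1, an oxysterol hydroxylase, went from 393, 394 and 378 to 92.9, 138 and 134 (-1.57 ± 0.21). Cyp2f2, a periportal P450, went from 842, 819 and 588 to 215, 143 and 319 (-1.71 ± 0.25, adjusted p = 0.00255), and wild type had 1176, 949 and 1071. Cyp2f2 was therefore lowest in the double-deficient group, while Gsta4, a glutathione transferase, moved back toward wild type (313, 467 and 382 in TGFB KO, 1091, 705 and 821 in IFNko TGFB1 KO, 1602, 1811 and 1569 in wild type; 1.13 ± 0.20). Gsta4 lost its call with arrays centred on their medians. Cyp2f2 is among the 3 genes near Tgfb1 that fell, given above, and the part of a strain segment was not tested. Of 21 tested hepatocyte markers 1 fell (Mat1a, -1.16 ± 0.26) and 0 rose, and 18 had a negative change. The call of Mat1a was lost without TGFB KO 1 (adjusted p = 0.0582), TGFB KO 2 (adjusted p = 0.0801), TGFB KO 3 (adjusted p = 0.0715) or IFNko TGFB1 KO 1 (adjusted p = 0.0548), and 0 markers fell in these fits. Without IFNko TGFB1 KO 3 3 fell. The marker Tdo2 changed by -1.94 on its brightest probe set and did not pass. Its other probe sets gave -2.22 and -2.01, with adjusted p of 0.025 and 0.0218 in a limma fit over probe sets.

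Secreted liver proteins also changed in part, where 2.82% of all genes tested fell and 2.54% rose. Of 45 tested apolipoprotein, complement and coagulation genes 6 fell and 0 rose. The falls were 4 without IFNko TGFB1 KO 1, TGFB KO 1 or TGFB KO 3 and 3 without TGFB KO 2, and without IFNko TGFB1 KO 2 2 genes rose. C1ra, a protease of the classical complement pathway, went from 2003, 2147 and 1626 to 599, 513 and 684 (-1.66 ± 0.20, adjusted p = 0.000604) and Apoc3, which slows clearance of triglyceride-rich particles, from 14552, 11621 and 11732 to 5001, 4499 and 6289 (-1.27 ± 0.18, adjusted p = 0.00222). Of 28 tested acute phase genes 6 fell and 1 rose, with a median of -0.67. Saa3 went from 2286, 1269 and 3151 to 484, 558 and 848 (-1.75 ± 0.34, adjusted p = 0.014), a call lost without TGFB KO 1 (adjusted p = 0.0587) or IFNko TGFB1 KO 1 (adjusted p = 0.0509). The list's count of falls was 2 without IFNko TGFB1 KO 1, 1 without TGFB KO 1, 2 without TGFB KO 2, 3 without TGFB KO 3 and 4 without IFNko TGFB1 KO 2. Of 37 tested genes of fatty acid oxidation 2 rose (Acaa1b, 1.17 ± 0.26, and Ehhadh, 0.74 ± 0.19), and 0 rose without TGFB KO 1, TGFB KO 3, IFNko TGFB1 KO 1 or IFNko TGFB1 KO 3 and 1 without TGFB KO 2. Ehhadh lost its call in each fit that left out 1 of the 6 arrays. The plot of all lists shows the medians of these groups between those of the interferon lists on one side and the stellate and T cell lists on the other.

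**Figure D4:**
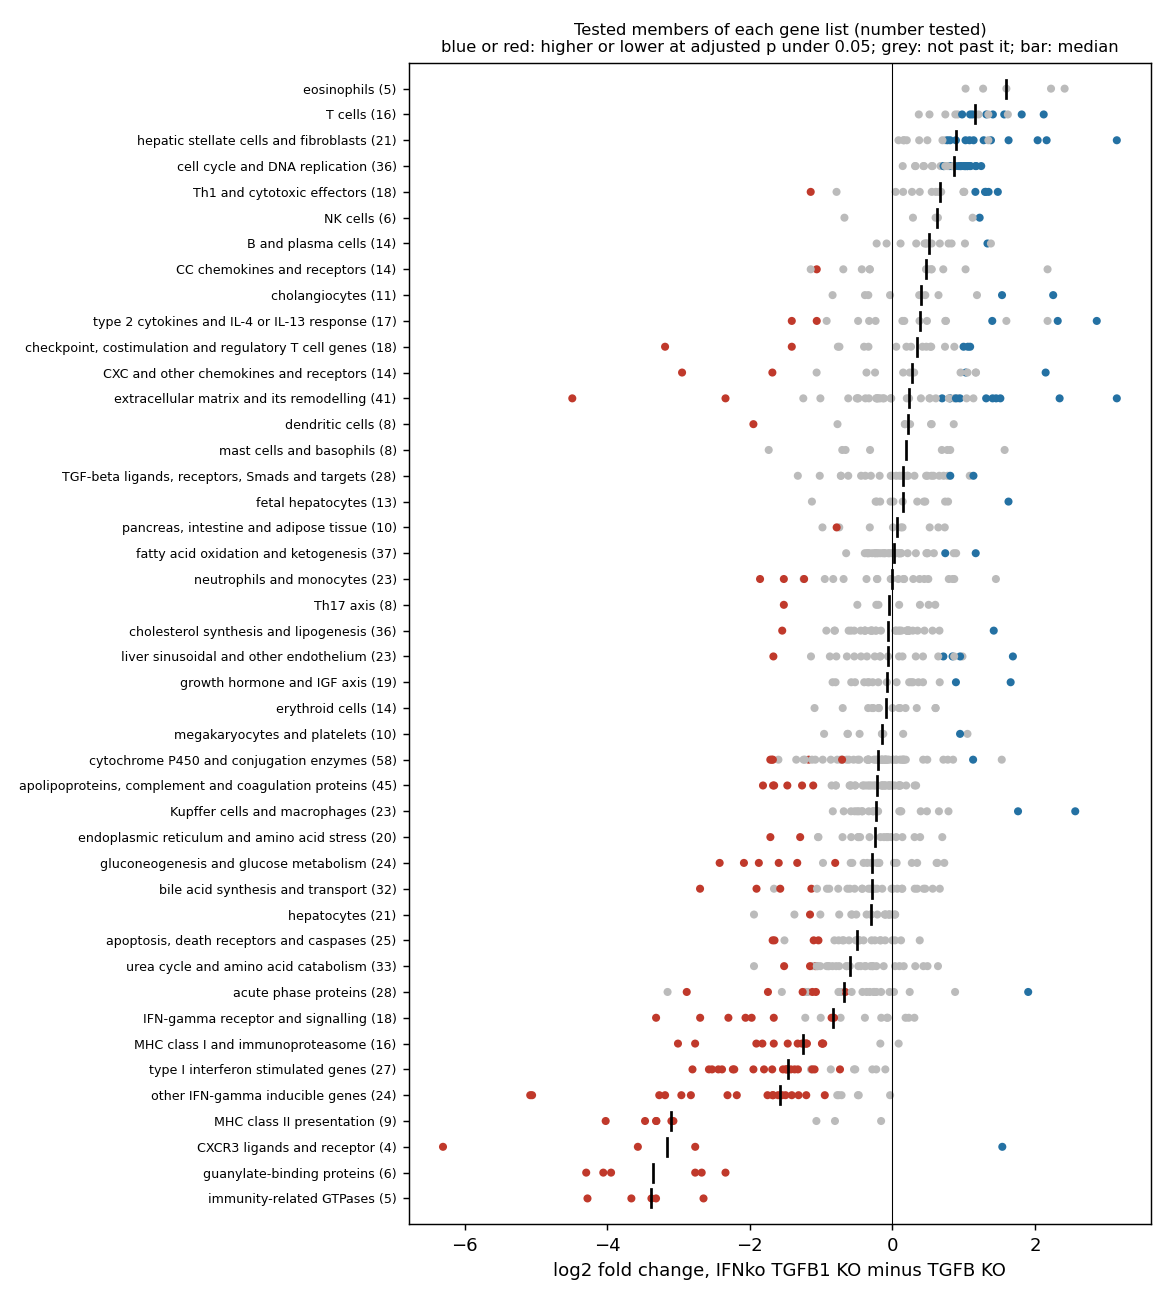
Log2 fold change (x axis, IFNko TGFB1 KO minus TGFB KO) of each tested member of 44 gene lists (y axis, number tested in brackets), 1 point per gene, red for fallen, blue for risen, grey for not past the threshold, with the list's median as a bar. The immunity-related GTPases (-3.38) and guanylate-binding proteins (-3.36) have the lowest medians.

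The same deletion was also present in livers with Tgfb1. INFko TGFB+ against wild type, 3 arrays each and none shared with the arrays above, gave 0 called genes (0%) of 12760 by limma, with 650 at an unadjusted p under 0.05 and a smallest adjusted p of 0.374. Across all genes the 2 sets of changes had a Pearson r of 0.157 and a Spearman rho of 0.164, which are across genes, not independent replicates, and describe these arrays. Of the 360 genes that fell in Tgfb1-deficient liver, 234 were negative in liver with Tgfb1, with a median of -0.10. Of the 324 that rose, 197 were positive there, with a median of 0.07.

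The test of the difference between the Ifng effects, with and without Tgfb1, was passed by 111 genes (0.87%). Of these, 80 were lower (0.627%) and 31 higher (0.243%) without Tgfb1. All 6 guanylate-binding proteins were negative in livers with Tgfb1 too, by a median of -0.54, and 5 of them passed the test of the difference, Gbp3 being the exception. All 5 immunity-related GTPases passed it. Cxcl9 was 281, 115 and 305 in wild type and 44.6, 60.4 and 47.2 in INFko TGFB+ (-1.80 ± 0.29), and its difference of effects was -4.50 ± 0.42 (adjusted p = 0.000371). Mmp13 had 0.01 ± 0.46 in livers with Tgfb1 and a difference of -4.50 ± 0.65 (adjusted p = 0.00793). Among rises, Lum (2.94 ± 0.37, adjusted p = 0.00357), Reln (2.31 ± 0.29, adjusted p = 0.00357) and Il13ra2 (3.14 ± 0.43, adjusted p = 0.00641) passed it. Of 21 stellate cell and fibroblast markers 6 passed it, of 16 T cell markers 1, of 36 cell cycle genes 1 and of 5 eosinophil genes 0. The count of 111 ranged from 46 without INFko TGFB+ 2 to 160 over the fits that left out 1 array, and was 68 without wild type 2, 63, 71 and 73 without TGFB KO 1, 2 and 3, and 64 and 61 without INFko TGFB+ 1 and 3.

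**Figure D5:**
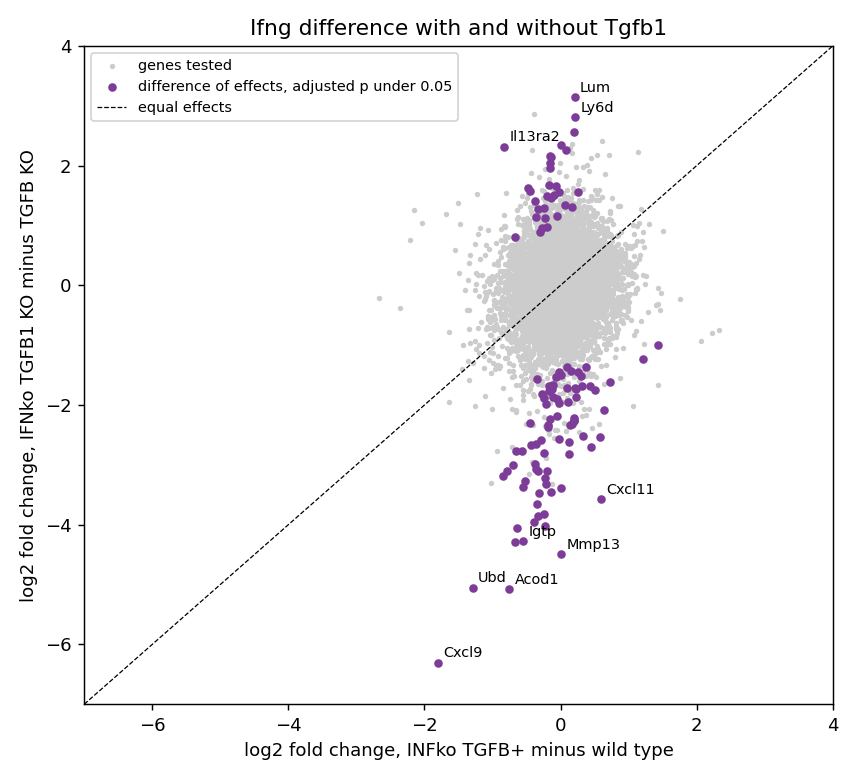
Log2 fold change with Ifng lacking in livers with Tgfb1 (x axis, INFko TGFB+ minus wild type) and without Tgfb1 (y axis, IFNko TGFB1 KO minus TGFB KO) for 12760 genes, 1 point per gene, with the 111 genes whose effects differed in purple and equal effects as a dashed line. Cxcl9 lies at -1.80 and -6.30, well below the line, and Lum at 0.21 and 3.15, above it.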

How the data were processed

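Total liver RNA, extracted with Trizol and labelled with biotin per the labels' protocols, was read on 12 one-colour arrays, each with 45101 probe sets. The authors deposited signal intensity on a linear scale. In every array its mean without the lowest and highest 2% is 150, so the arrays had been scaled by the authors, with an algorithm not given in the sources used here. The labels give 4 groups of 3 samples. The log2 of intensity plus a pseudocount of 16 was quantile normalised over the 12 arrays, and the pseudocount makes changes of dim genes look smaller than they are. The 64 control probe sets and those with a mean under the 40th percentile (log2 level 5.25) were left out. Probe sets were named from the platform's annotation, with 34754 symbols updated through a RefSeq table of GRCm38.p6. Of all probe sets 34958 have a single symbol, 932 several and 9211 none listed. Each gene was read from its brightest single-symbol probe set.

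The tests used limma 3.58.1 in R 4.3.3 (lmFit with 4 group means over 12 arrays, then eBayes, with 8 residual and 3.44 prior degrees of freedom), two-sided, with Benjamini-Hochberg adjustment over 12760 genes. The number of arrays limits the precision. There are 44 gene lists with 1014 genes in all, 903 of them on the array and 825 tested, and some lists share genes. Members and lists were chosen with earlier results of these data known. The genes to name were the targeted genes, the 15 largest rises and falls past the threshold without overlap (predicted, clone and RIKEN names passed over), the 6 largest of each for the other contrasts, up to 4 members per list with the smallest p, and every tested member of 7 lists: interferon gamma signalling, guanylate-binding proteins, immunity-related GTPases, Cxcr3 and its ligands, MHC class II, type 2 response and eosinophils. The text gives a choice of these, and list members it adds were chosen after their values were seen. The procedure was tested on simulated data. Alternatives varied normalisation, pseudocount, filter, probe set rule, samples, weights, sex, replicate block, trend and single arrays. Detection calls were not used here.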

Additional observations from a re-analysis of the deposited data

Results flagged for a closer look

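The change with Ifng lacking differed between livers without and with Tgfb1 for 80 genes that were lower and 31 that were higher without Tgfb1, by limma's test of the difference of effects. The values below are that difference, without Tgfb1 minus with Tgfb1, on the log2 scale. Among the higher genes, it was 3.14 ± 0.43 for Il13ra2 (adjusted p = 0.00641), 2.94 ± 0.37 for Lum (adjusted p = 0.00357), 2.59 ± 0.47 for Ly6d (adjusted p = 0.0261), 2.36 ± 0.41 for Cd209f (adjusted p = 0.0216), 2.34 ± 0.32 for Postn (adjusted p = 0.00641) and 2.31 ± 0.29 for Reln (adjusted p = 0.00357). Among the lower genes, it was -4.50 ± 0.65 for Mmp13 (adjusted p = 0.00793), -4.50 ± 0.42 for Cxcl9 (adjusted p = 0.000371), -4.32 ± 0.66 for Acod1 (adjusted p = 0.0105), -4.16 ± 0.65 for Cxcl11 (adjusted p = 0.0119), -3.79 ± 0.50 for H2-Eb1 (adjusted p = 0.00518) and -3.77 ± 0.58 for Ubd (adjusted p = 0.0112). Il13ra2 had 42.5, 24.96 and 17.7 in wild type and 6.7, 4.04 and 15.9 in INFko TGFB+, so its change went in the other direction in livers with Tgfb1 (-0.83 ± 0.31), where it did not pass the threshold. Ubd had 215, 51.6 and 50.4 in wild type and 20.01, 23.7 and 33.7 in INFko TGFB+.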

How the results depend on the processing

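Alternatives were run for every gene of the naming rule and every list member past the threshold. Of the 214 such genes that passed it, 0 changed direction with a call in any alternative, 83 kept their call in every alternative run, up to 18 per gene, and 131 lost it in at least 1, 94 of them without 1 array. Of 78 named genes that did not pass, 27 passed in at least 1 alternative. Of the main comparison, 324 genes rose and 360 fell. The risen count was 100 with arrays centred on their medians, 191 without the signal filter, 65 with only the 6 arrays in the fit and 187 with array weights, and the fallen count was 148 with only the 6 arrays. Leaving out 1 array gave 138 to 324 risen and 189 to 419 fallen genes. The difference of the Ifng effects, 111 genes, gave 57 with a pseudocount of 1, 212 with a pseudocount of 64, 173 with a trend on mean level and 46 to 160 without 1 array. INFko TGFB+ against wild type gave 0 genes in every other setting and 0 to 2 without 1 array. Fits with only the 6 arrays have fewer residual degrees of freedom, and for the other changes the cause was not tested. The replicate numbers are not stated to pair the samples and were not used as pairs. Same-numbered arrays had correlations of deviations of -0.08, -0.06 and 0.11, and differently numbered arrays had -0.15 to 0.20. With 3 arrays per group these values cannot exclude a pairing. With the replicate number as a block 260 genes rose and 311 fell, and 84 passed the difference of effects. Genes near the lower end of the signal range are limited by background, and folds against them are understated.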
